A study of Mus musculus with 9 samples.

Results

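The alpha-granule is the most abundant storage granule of the platelet, and the 10 genes described here encode proteins that megakaryocytes (MKs) or platelets load into it: the chemokines Pf4 and Ppbp, the proteoglycan core protein Srgn, the adhesive proteins Vwf and Thbs1, the adhesion receptor Selp, coagulation factor F5 and its carrier Mmrn1, the matricellular protein Sparc and the chaperone Clu. They were chosen by name, through the gene names of the array's probes, and all 10 were among the 29410 genes tested of 37316 named on the array. The samples were mature MKs (mMKs) from the bone marrow of male C57BL/6 wild-type mice, enriched by selecting CD41-positive and then CD42d-positive cells, and their RNA was hybridized to Agilent 1-colour expression arrays. Ctrl mice were sham-irradiated, and the other mice received 5 Gy of gamma-rays to the whole body (IR) and were sampled 1 day (1 dpi) or 3 days (3 dpi) later, with 3 arrays per group from separate experiments that used different donors. The comparisons ask how the RNA for stored cargo differed from Ctrl at each time after IR, and between the 2 times.

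Alpha-granules form in the MK before platelets are shed. Their cargo comes from synthesis in the MK itself and from uptake of plasma proteins, and serglycin helps to retain the basic chemokines in the granule. On platelet activation the granules fuse with the surface, which releases the chemokines and adhesive proteins and exposes P-selectin.

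Values are log2 intensities of a gene's brightest probe after subtraction of the 75th percentile of the array, so 0 marks that percentile and a difference of 1 is a 2-fold difference. Ctrl replicate 1 stood apart: it was hybridized on slide 1 and scanned alone, while the other 8 arrays shared slide 2 and 1 scan. Its share of spots well above background was 69.1%, against 79.5% and 80.8% on the other Ctrl arrays. The 75th percentile of log2 intensity was 9.52, 10.12 and 10.15 on the Ctrl arrays, 8.85, 8.96 and 8.94 at 1 dpi and 9.86, 10.04 and 10.02 at 3 dpi, so the 1 dpi arrays were the dimmest group. After scaling, log2 fold changes of all tested genes had a median of 0.23 at 1 dpi and 0.12 at 3 dpi against Ctrl, and -0.08 at 3 dpi against 1 dpi. With each array scaled to its median instead, the first of these became -0.10, a shift that applies to every gene alike, and each gene's changes from Ctrl are therefore also given relative to the median of all genes. All 10 cargo genes were well above background on all 9 arrays by the probe used, so none owed its place among the tested genes to 1 group.

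A gene was called at a limma adjusted p under 0.05 over all genes together with at least a 2-fold difference. At 1 dpi, 1 of the 10 cargo genes, Sparc, was called higher than in Ctrl, beside 11.7% of all genes, and 0 was called lower, beside 3.08%. At 3 dpi, 2 were called higher than in Ctrl, Sparc and Clu, beside 7.04% of all genes, and 0 lower, beside 1.79%. Between 3 and 1 dpi 0 of 10 passed both limits, beside 4.16% of all genes called higher and 4.48% called lower. The adjusted p alone was passed by 5 of 10 in that comparison, beside 44.3% of all genes. The median log2 fold change of the 10 was 0.18 at 1 dpi, 0.21 at 3 dpi and 0.20 between the 2 times, against 0.23, 0.12 and -0.08 for all genes. Both comparisons with Ctrl used the same 3 Ctrl arrays, and the third used the same irradiated arrays again, so they are not independent of each other. The 2 groups did not overlap in 7 of 10 cargo genes at 1 dpi beside 67.2% of all genes. The same held for 6 of 10 at 3 dpi beside 47.2%, and for 6 of 10 between 3 and 1 dpi beside 65.2%.

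**Figure D1:**
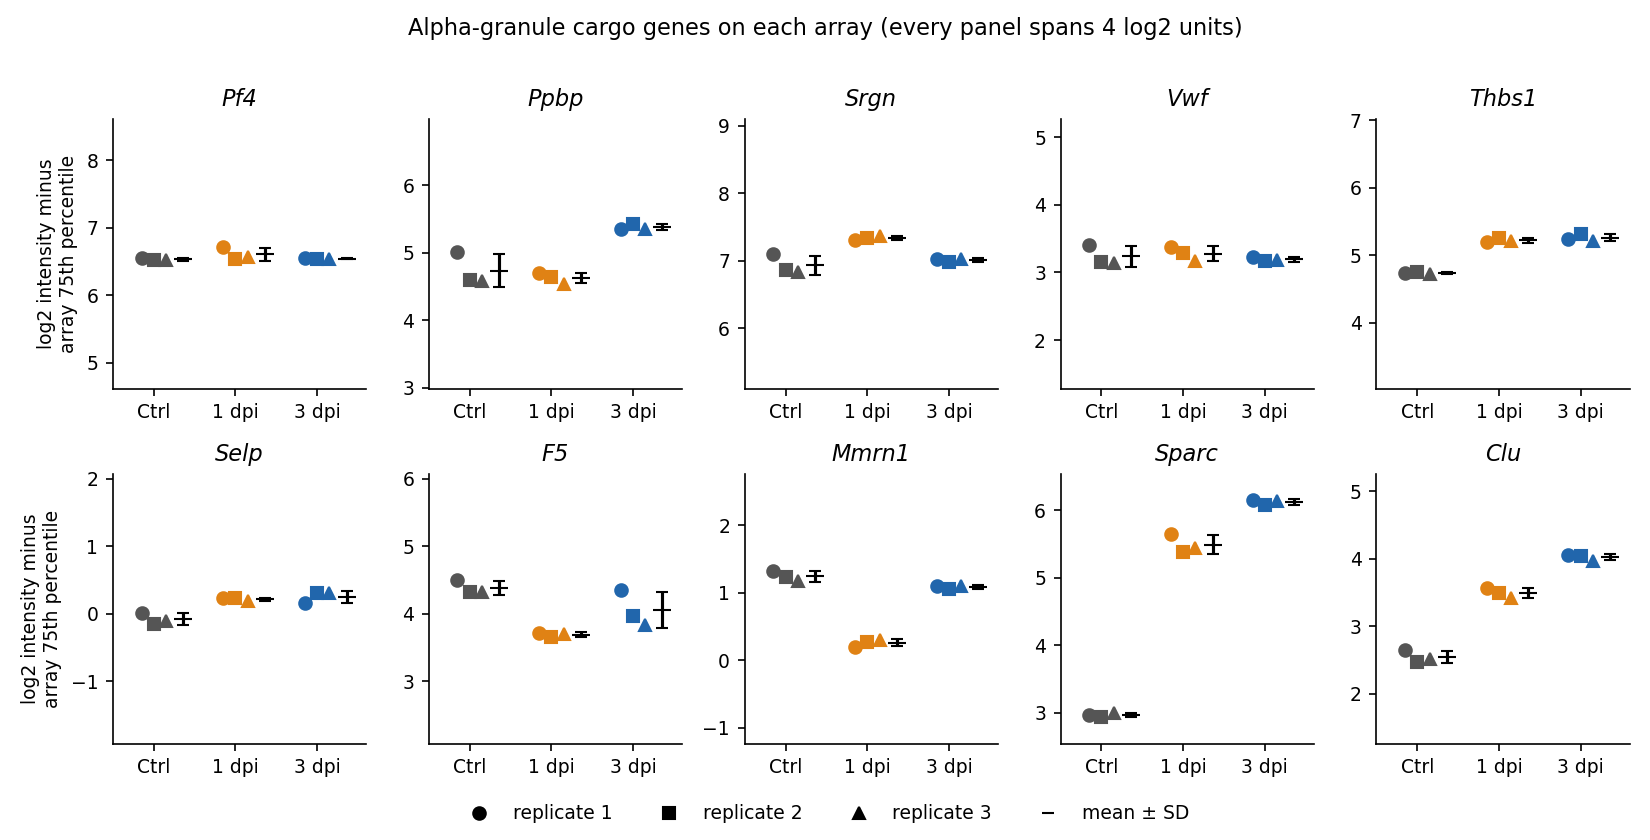
Scaled log2 intensity (log2 intensity minus the array's 75th percentile) of the 10 cargo genes on each of the 9 arrays, with marker shape for the replicate and black bars for the group mean ± SD; every panel spans 4 log2 units. Sparc stands at 2.96 in Ctrl and 6.12 at 3 dpi, while the 9 Pf4 points lie between 6.52 and 6.71.

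Pf4 (platelet factor 4, CXCL4) and Ppbp (pro-platelet basic protein, CXCL7) encode the chief chemokines of the granule and lie next to each other on chromosome 5. RefSeq (GRCm38.p6) promoter sequences, from 250 bases before to 50 after a gene's start, were available for 7 of the 10 genes, with 8 starts in all because Srgn has 2. They were Pf4, Ppbp, Selp, F5, Mmrn1, Sparc and Srgn, and Vwf, Thbs1 and Clu had no entry. A GATA core (AGATAA) and an ETS core (GGAAGT) were searched on both strands, since GATA and ETS factors are the classical regulators of MK genes. The 250 bases before the start of both chemokine genes are shown because these 2 neighbours share a granule and differ in their values below; capitals mark an ETS core, which both carry on the opposite strand, as ACTTCC.
Pf4, chr5:90772185-90772434, plus strand: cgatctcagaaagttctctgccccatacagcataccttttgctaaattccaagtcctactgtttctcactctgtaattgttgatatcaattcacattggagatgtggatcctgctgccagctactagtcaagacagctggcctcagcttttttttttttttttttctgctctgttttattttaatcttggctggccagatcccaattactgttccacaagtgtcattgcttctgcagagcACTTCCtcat
Ppbp, chr5:90768268-90768517, plus strand: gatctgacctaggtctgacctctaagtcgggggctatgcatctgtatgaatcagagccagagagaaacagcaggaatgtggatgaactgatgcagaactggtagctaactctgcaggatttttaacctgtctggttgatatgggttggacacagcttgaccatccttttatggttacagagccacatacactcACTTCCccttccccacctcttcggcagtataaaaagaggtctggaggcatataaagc

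The core began 10 bases before the Pf4 start and 57 bases before the Ppbp start. Pf4 also held the list's single GATA core, 37 bases into the transcript at chr5:90772455-90772484, shown in capitals within the last 30 bases of its window: actgggcaggcagtgaAGATAAaacgtgct. An ETS core was present in 5 of the 8 promoters (Pf4, Ppbp, Selp, Mmrn1 and 1 of the 2 Srgn starts) and in 23.8% of all 32851 promoters, and a GATA core was present in 1 of the 8 and in 11.2% of all. A match describes the letters only.

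Pf4 had scaled log2 values of 6.55, 6.52 and 6.52 on the Ctrl arrays, 6.71, 6.53 and 6.56 at 1 dpi and 6.56, 6.53 and 6.54 at 3 dpi. The 3 groups overlapped, and 1 dpi replicate 1 was the highest array. The log2 fold change was 0.07 ± 0.06 (SE, n = 3 arrays per group) at 1 dpi with a limma adjusted p of 0.344, and 0.01 ± 0.06 at 3 dpi with 0.9, with 95% intervals from -0.07 to 0.22 and from -0.14 to 0.16. Its sign depended on the scaling: after quantile normalization the 1 dpi value was -0.34 (limma adjusted p = 0.00256), after median scaling -0.25 (0.132), and relative to the median of all genes it was -0.15 at 1 dpi and -0.11 at 3 dpi. Before any scaling, the Pf4 intensity was 68921, 102001, 104728 on the Ctrl arrays, 48316, 46216, 46420 at 1 dpi and 87162, 97621, 96580 at 3 dpi. The 1 dpi arrays were thus the lowest in plain intensity, as they were for the array as a whole. In RNA from a whole cell fraction, fewer MKs in the fraction and less RNA per MK cannot be told apart, for Pf4 or for any gene below.

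Ppbp gave 5.02, 4.61 and 4.59 on the Ctrl arrays, 4.70, 4.64 and 4.54 at 1 dpi and 5.35, 5.44 and 5.36 at 3 dpi. All 3 arrays at 3 dpi lay above every Ctrl and 1 dpi array, while Ctrl and 1 dpi overlapped and Ctrl replicate 1 was the highest of its group. At 3 dpi the log2 fold change against Ctrl was 0.64 ± 0.12, or 1.56-fold (limma adjusted p = 0.00469), which is short of 2-fold, and without Ctrl replicate 1 it was 0.79 (0.000142). The 1 dpi value was -0.11 ± 0.12 (adjusted p = 0.45, limma) and became 0.03 without that array. Relative to the median of all genes Ppbp was at -0.34 and 0.53. From 1 to 3 dpi the difference was 0.75 ± 0.12 (limma adjusted p = 0.00184), and all 5 scalings put it above 0. Against Ctrl at 3 dpi it missed the test after median scaling (0.49, limma adjusted p = 0.103). At 3 dpi, Pf4 thus overlapped with Ctrl and Ppbp did not, though the difference between the genes was not tested.

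Srgn encodes serglycin, the core protein whose sulfated chains hold basic chemokines in the granule. Its values were 7.09, 6.86 and 6.83 on the Ctrl arrays, 7.30, 7.34 and 7.37 at 1 dpi and 7.03, 6.98 and 7.02 at 3 dpi. Under this scaling the 1 dpi arrays were the highest and overlapped with neither other group, and the 3 dpi arrays lay within the range of Ctrl, whose highest array was again replicate 1. The log2 fold change was 0.41 ± 0.08 at 1 dpi (limma adjusted p = 0.00355), but it was -0.11 after quantile normalization and -0.13 after normexp correction and quantile normalization, so its direction was not settled. At 3 dpi it was 0.08 ± 0.08 (0.47), and 0.16 without Ctrl replicate 1 (0.0433). Taken against the median of all genes, Srgn was at 0.18 and -0.04.

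Vwf encodes von Willebrand factor, which tethers platelets to exposed collagen and is made by MKs and endothelial cells. Its brightest probe, A_51_P103397, annotated to the RefSeq transcript, gave 3.41, 3.16 and 3.15 on the Ctrl arrays, 3.38, 3.28 and 3.17 at 1 dpi and 3.23, 3.17 and 3.18 at 3 dpi. The 3 groups overlapped, with Ctrl replicate 1 and 1 dpi replicate 1 the highest arrays. The log2 fold changes were 0.04 ± 0.09 at 1 dpi (limma adjusted p = 0.723) and -0.04 ± 0.09 at 3 dpi (0.737), and their signs turned with the scaling at 1 dpi (-0.28 after median scaling) and without Ctrl replicate 1 at 3 dpi (0.04). Against the median of all genes this probe was at -0.19 and -0.16. The other 2 Vwf probes are annotated to Ensembl transcripts and gave a different picture. Probe A_55_P2169659 (chr6:125542106-125542165, mm9, plus strand) gave -1.25, -1.48 and -1.41 on the Ctrl arrays, -1.61, -1.55 and -1.65 at 1 dpi and -2.75, -2.66 and -2.74 at 3 dpi. All its 3 dpi arrays lay below every other array, and the log2 fold change at 3 dpi was -1.34 ± 0.08 (limma adjusted p over all probes = 9.65e-06), which passed the 2-fold limit. Probe A_55_P2718900 (chr6:125586583-125586642, mm9) gave -0.77 ± 0.08 (0.000168). Which Vwf transcripts each of the 3 probes detects in these cells was not tested, and the deposited gene-level table carries the values of A_55_P2169659 for Vwf.

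Thbs1 encodes thrombospondin-1, an adhesive glycoprotein released in large amounts by activated platelets. Its values were 4.74, 4.76 and 4.72 on the Ctrl arrays, 5.19, 5.26 and 5.21 at 1 dpi and 5.24, 5.32 and 5.22 at 3 dpi. Every irradiated array lay above every Ctrl array, and 1 and 3 dpi overlapped. The log2 fold change was 0.48 ± 0.06 at 1 dpi (limma adjusted p = 0.000315) and 0.52 ± 0.06 at 3 dpi (0.000294), which are 1.39-fold and 1.43-fold, and relative to the median of all genes 0.25 and 0.40. All 5 scalings kept it above 0 at both times, but after median scaling it was 0.15 at 1 dpi (0.336) and 0.37 at 3 dpi (0.0631) and missed the test at both. Its other probe, A_65_P13588, which targets the same RefSeq transcript (chr2:117950962-117951021, mm9, plus strand), gave 2.52, 2.23 and 2.25 on the Ctrl arrays, 3.77, 3.51 and 3.29 at 1 dpi and 3.13, 2.95 and 2.98 at 3 dpi. Here the 1 dpi arrays were the highest, with a log2 fold change of 1.19 ± 0.14 (limma adjusted p over all probes = 0.000262), and that of 0.69 ± 0.14 at 3 dpi (0.00594) was smaller. The 2 probes were both above Ctrl at both times, and only A_65_P13588 passed the 2-fold limit, at 1 dpi.

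Selp encodes P-selectin, the granule membrane receptor that moves to the platelet surface on activation and binds leukocytes. Its brightest probe gave 0.02, -0.15 and -0.10 on the Ctrl arrays, 0.23, 0.23 and 0.19 at 1 dpi and 0.15, 0.31 and 0.31 at 3 dpi. Under this scaling every irradiated array was above every Ctrl array, by a small margin. The log2 fold change was 0.29 ± 0.07 at 1 dpi (limma adjusted p = 0.0101) and 0.34 ± 0.07 at 3 dpi (0.00902), and median scaling brought these to -0.03 (0.877) and 0.18 (0.413), so both missed the test, and against the median of all genes they were 0.07 and 0.22. The other 2 Selp probes target the same RefSeq transcript. Probe A_52_P57843 lies in coding sequence at chr1:166071558-166071617 (mm9, plus strand) and is shown for that reason: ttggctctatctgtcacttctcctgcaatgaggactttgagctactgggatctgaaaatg. It gave -2.68, -2.90 and -2.85 on the Ctrl arrays, -2.21, -2.26 and -2.18 at 1 dpi and -2.28, -2.39 and -2.33 at 3 dpi, again with no overlap between Ctrl and the irradiated arrays. Its log2 fold changes were 0.60 ± 0.08 (limma adjusted p over all probes = 0.000432) and 0.48 ± 0.08 (0.00206), and those of A_66_P116477 were 0.54 ± 0.08 and 0.46 ± 0.08. All 3 Selp probes were thus higher than Ctrl at both times under the scaling used here, though after median scaling the brightest was not at 1 dpi and missed the test at 3 dpi, and none reached 2-fold.

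F5 encodes coagulation factor V, of which platelets carry a store in the alpha-granule, bound to multimerin-1, the product of Mmrn1. The array has 1 probe for F5, A_66_P116192 at chr1:166149553-166149612 (mm9, plus strand), which lies in coding sequence and is shown because all F5 values rest on it: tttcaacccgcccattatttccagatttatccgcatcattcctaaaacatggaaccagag. The F5 values were 4.50, 4.32 and 4.33 on the Ctrl arrays, 3.72, 3.66 and 3.71 at 1 dpi and 4.36, 3.97 and 3.84 at 3 dpi. The 3 arrays at 1 dpi were the lowest of the 9, and the 3 dpi arrays were spread from 3.84 to 4.36 and overlapped with Ctrl. The log2 fold change was -0.69 ± 0.13 at 1 dpi (limma adjusted p = 0.00332), or 0.621 of Ctrl, and -0.32 ± 0.13 at 3 dpi (0.103), which did not pass. The 3 dpi outcome turned with the normalization, as F5 passed the adjusted p after quantile normalization (-0.44, 0.0199), after normexp (-0.45, 0.00804) and in the deposited values (-0.44, 0.0197). It also turned with single arrays, at -0.48 without 3 dpi replicate 1 (0.00608) and -0.22 without 3 dpi replicate 3 (0.279). Relative to the median of all genes F5 was at -0.91 and -0.44, and with median scaling the 1 dpi value reached -1.01 and passed the 2-fold limit (0.00177).

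Mmrn1 had values of 1.33, 1.24 and 1.17 on the Ctrl arrays, 0.21, 0.28 and 0.30 at 1 dpi and 1.101, 1.05 and 1.11 at 3 dpi. The 3 groups did not overlap, with 1 dpi the lowest and 3 dpi just under Ctrl. The log2 fold change at 1 dpi was -0.98 ± 0.06 (limma adjusted p = 1.74e-05), 0.505 of Ctrl and just short of the 2-fold limit. It was -0.94 without Ctrl replicate 1, and it passed the limit without Ctrl replicate 3 (-1.02), without 1 dpi replicate 3 (-1.004) and with median scaling (-1.31), which brought the count of called cargo genes at 1 dpi to 2, 2 and, with F5, 3. Relative to the median of all genes it was -1.21, and -0.28 at 3 dpi. At 3 dpi it was -0.16 ± 0.06 (0.0968), and from 1 to 3 dpi 0.83 ± 0.06 (limma adjusted p = 7.62e-05), above 0 in all 5 scalings. F5 and its carrier therefore both had their lowest values at 1 dpi, and for Mmrn1 the difference between the times passed the test, while for F5 it just missed (0.36 ± 0.13, adjusted p = 0.0563, limma). The F5 difference passed after quantile normalization (0.0416) and without 3 dpi replicate 3 (0.47, 0.0297), and without 3 dpi replicate 1 it was 0.21 (0.0809). The second Mmrn1 probe, A_52_P126132, was well above background on 1 of 9 arrays and was not tested. The 250 bases before the Mmrn1 start are shown with the ETS core in capitals, 118 bases before the start on the same strand.
Mmrn1, chr6:60944067-60944316, plus strand: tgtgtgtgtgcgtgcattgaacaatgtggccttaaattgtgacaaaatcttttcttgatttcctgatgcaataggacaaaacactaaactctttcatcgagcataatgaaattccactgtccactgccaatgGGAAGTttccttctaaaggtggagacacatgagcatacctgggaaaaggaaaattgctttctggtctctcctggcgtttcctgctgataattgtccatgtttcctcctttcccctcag

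Sparc encodes osteonectin, a collagen-binding matricellular protein that platelets store and that bone-forming and stromal cells also make. Its values were 2.96, 2.93 and 2.99 on the Ctrl arrays, 5.64, 5.37 and 5.44 at 1 dpi and 6.15, 6.07 and 6.14 at 3 dpi. All irradiated arrays lay more than 2 log2 units above every Ctrl array, and all 3 dpi arrays lay above all 1 dpi arrays. Sparc rose 5.76-fold at 1 dpi (log2 fold change 2.53 ± 0.08, limma adjusted p = 7.2e-07) and 8.93-fold at 3 dpi (3.16 ± 0.08, 2.83e-07). Without Ctrl replicate 1 these were 2.53 and 3.16, and over the 5 scalings they ran from 2.20 to 2.58 and from 3.01 to 3.23. Relative to the median of all genes they were 2.30 and 3.04, and of all genes tested, 98.9% had a smaller log2 fold change at 1 dpi and 99.3% at 3 dpi. The probe used lies at chr11:55208939-55208998 (mm9, minus strand). Probe A_52_P101852 of the same RefSeq transcript has its 60 bases divided over chr11:55209449-55212106 (mm9, minus strand), so it crosses an exon junction in coding sequence and reads spliced RNA: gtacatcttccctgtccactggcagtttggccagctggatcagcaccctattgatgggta. It gave 0.05, -0.02 and -0.01 on the Ctrl arrays, 2.46, 2.18 and 2.30 at 1 dpi and 3.31, 3.24 and 3.38 at 3 dpi. These match the order of the first probe, with log2 fold changes of 2.31 ± 0.08 (limma adjusted p over all probes = 1.38e-06) and 3.31 ± 0.08 (2.84e-07). The third Sparc probe, A_55_P2713955, is annotated to an Ensembl transcript and gave 0.42 ± 0.17 (0.0625) and -0.01 ± 0.17 (0.958), neither of which passed. With the mean of the 3 probes as the value of the gene, Sparc had 1.75 at 1 dpi and 2.15 at 3 dpi (limma adjusted p = 2.66e-06 and 8.36e-07). The 250 bases before the Sparc start are shown as those of the cargo gene with the largest change. They hold neither core on either strand and so have no capitals.
Sparc, chr11:55420081-55420330, minus strand: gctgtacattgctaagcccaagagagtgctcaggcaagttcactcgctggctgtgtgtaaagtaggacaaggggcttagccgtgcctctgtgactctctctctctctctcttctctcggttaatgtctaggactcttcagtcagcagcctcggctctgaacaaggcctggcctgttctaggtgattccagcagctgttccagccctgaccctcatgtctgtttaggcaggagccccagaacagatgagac

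Clu encodes clusterin, a secreted chaperone found in the granule and made by many cell types. Its values were 2.65, 2.47 and 2.52 on the Ctrl arrays, 3.57, 3.50 and 3.41 at 1 dpi and 4.06, 4.05 and 3.97 at 3 dpi. The groups did not overlap, in the order Ctrl, 1 dpi and 3 dpi. Clu rose 2.79-fold at 3 dpi (log2 fold change 1.48 ± 0.07, limma adjusted p = 4.27e-06). At 1 dpi the value was 0.95 ± 0.07 (4.05e-05), 1.93-fold, just under the limit, and it passed with the 75th percentile taken over probes well above background on all arrays (1.001). Median scaling lowered the 1 dpi value to 0.62 (limma adjusted p = 0.00751). Relative to the median of all genes Clu stood at 0.72 and 1.36, and leaving out Ctrl replicate 1 gave 0.9997 at 1 dpi and 1.53 at 3 dpi. From 1 to 3 dpi the difference was 0.53 ± 0.07 (limma adjusted p = 0.000916). The second Clu probe, A_55_P2718608, was not well above background on any array and was not tested.

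**Figure D2:**
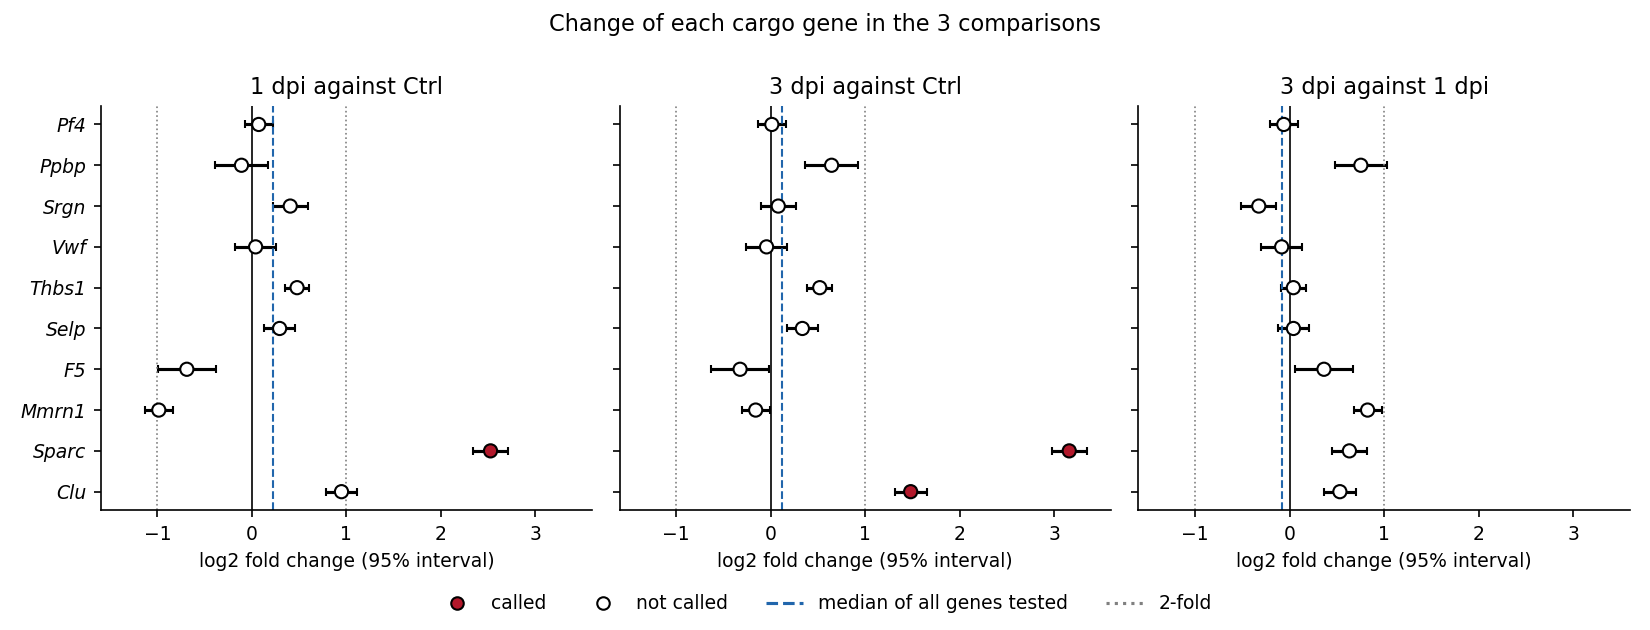
Log2 fold change of each cargo gene with its 95% interval in the 3 comparisons (3 arrays per group, limma), with filled points for called genes, dashed lines at the median of all genes tested and dotted lines at 2-fold. Sparc is called at 1 and 3 dpi against Ctrl and Clu at 3 dpi, and Mmrn1 sits at -0.98 at 1 dpi.

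**Figure D3:**
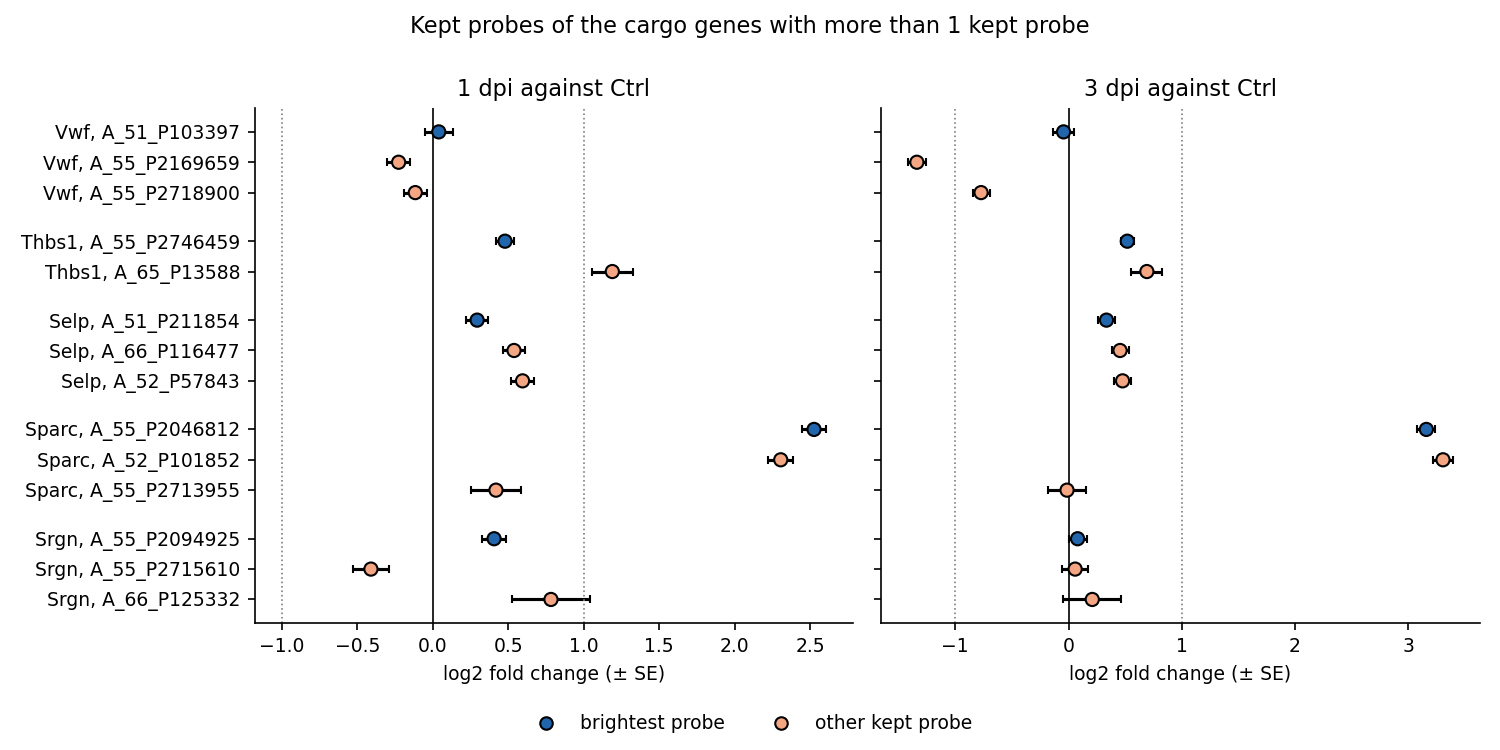
Log2 fold change ± SE against Ctrl of the kept probes of the 5 cargo genes that have more than 1 kept probe, from a limma fit over all kept probes, with the brightest probe of each gene in blue. The probes of Selp lie close together, those of Vwf run from -1.34 to -0.04 at 3 dpi, and 1 Sparc probe stays near 0 there.

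Across all probes, 19 of the 21 probes of the cargo genes were kept, and 5 genes were read by 1 kept probe. Of these 19, 3 were called at 1 dpi (2 of Sparc and 1 of Thbs1), beside 14.3% of all kept probes, and 4 at 3 dpi (2 of Sparc, 1 of Clu and 1 of Vwf), beside 8.47%. Between 3 and 1 dpi 2 were called, beside 8.57% of all kept probes: A_52_P101852 of Sparc at 1.001 ± 0.08 and A_55_P2169659 of Vwf at -1.11 ± 0.08. For Srgn, probe A_55_P2715610 gave -0.41 ± 0.12 at 1 dpi (limma adjusted p over all probes = 0.0191) where the brightest probe gave 0.41 ± 0.08 and A_66_P125332 gave 0.78 ± 0.26, so the Srgn probes disagreed in direction there.

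**Figure D4:**
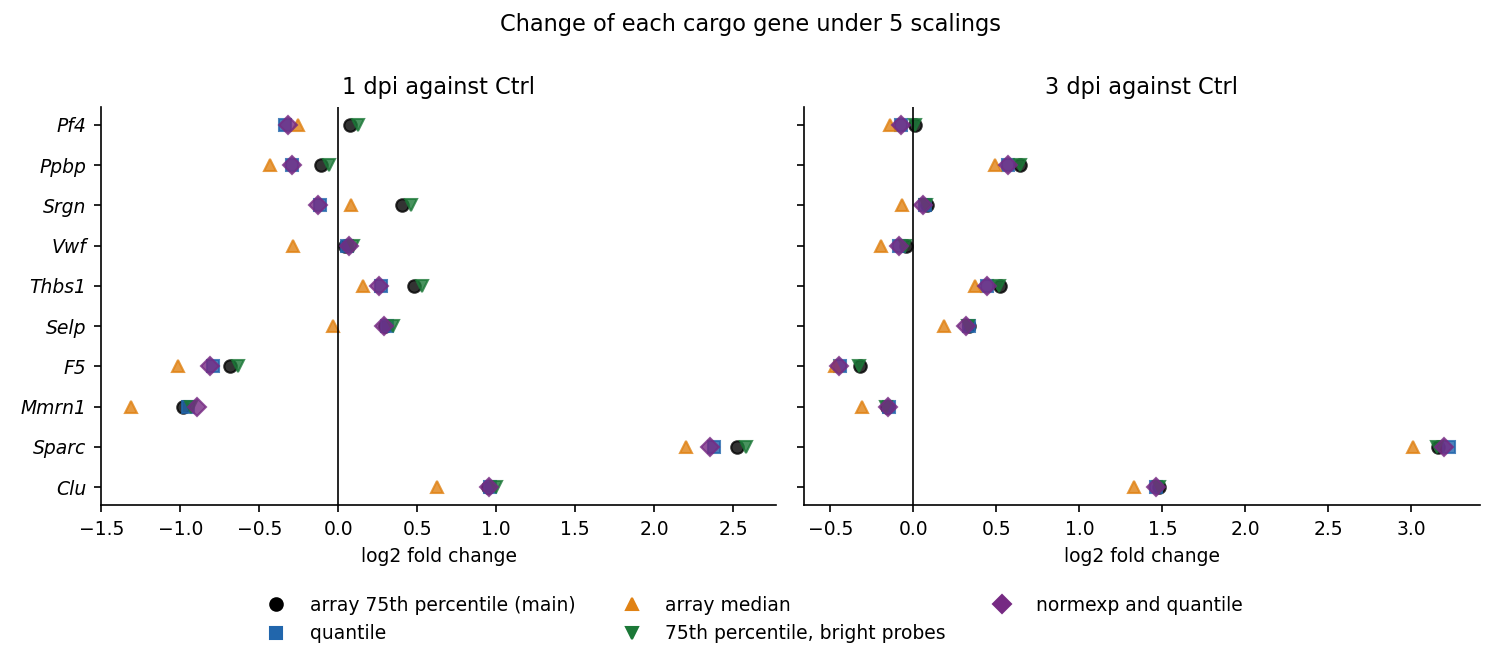
Log2 fold change against Ctrl of each cargo gene under 5 ways of scaling the arrays. At 1 dpi Pf4, Srgn, Vwf and Selp take both signs, and Ppbp, F5 and Mmrn1 stay below 0 and Thbs1, Sparc and Clu above 0, while at 3 dpi Pf4 and Srgn take both signs.

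The genes whose centred profiles over the 9 arrays were nearest to that of Sparc were the osteopontin gene Spp1 (Euclidean distance 0.321 log2 units), Pmp22 (0.347) and Ccn4 (0.364). Spp1 had log2 fold changes of 2.63 at 1 dpi and 3.11 at 3 dpi, close to the 2.53 and 3.16 of Sparc. The nearest to Clu were Hip1 (0.168), Rab34 (0.182) and Ccdc80 (0.186), and Hip1 had 0.90 and 1.46.

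Of 39 further genes for proteins found in alpha-granules, 36 were tested (Cd40lg, Fgg and Vtn were not well above background throughout any group). At 1 dpi 10 rose and 1 fell, beside 11.7% and 3.08% of all genes, and at 3 dpi 16 and 1, beside 7.04% and 1.79%. The median of the list was 0.52 and 0.77, against 0.18 and 0.21 for the 10 cargo genes and 0.23 and 0.12 for all genes. Gas6, a ligand of TAM receptors, rose most at both times (3.14 ± 0.08 and 4.62 ± 0.08), and the chemokines Cxcl1 (3.02 ± 0.15 and 3.51 ± 0.15) and Cxcl12 (2.69 ± 0.11 and 3.50 ± 0.11) and the protease inhibitor Serpine2 (1.62 ± 0.12 and 1.11 ± 0.12) rose as well. Timp1, an inhibitor of metalloproteinases, rose at both times (2.75 ± 0.17 and 1.62 ± 0.17), as did Serping1 (1.55 ± 0.15 and 3.01 ± 0.15), and Igf1 and Pdgfc rose at 3 dpi (2.66 ± 0.07 and 2.26 ± 0.10). The 1 gene of this list called lower, at both times, was Angpt1 (-1.105 ± 0.06 and -1.35 ± 0.06). Many of these genes, like Sparc and Clu, are also expressed by stromal cells, and Cxcl12 stands in the stromal list too.

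Among 11 genes for granule biogenesis and cargo sorting, 0 were called at 1 dpi and 2 were called lower at 3 dpi, Gfi1b (-1.18 ± 0.09) and Rab38 (-1.16 ± 0.06), beside 3.08% and 1.79% of all genes called lower, with list medians of -0.39 and -0.45. Nbeal2, whose loss causes gray platelet syndrome with its empty alpha-granules, was picked out after its values were seen, at 0.06 ± 0.09 and -0.35 ± 0.09, neither called. Of 17 receptors for alpha-granule cargo, 2 were called higher at 1 dpi and 3 at 3 dpi, beside 11.7% and 7.04% of all genes: Cd36, which binds thrombospondin-1 (2.48 ± 0.14 and 2.78 ± 0.14), Lrp1 (1.36 ± 0.07 and 2.20 ± 0.07) and, at 3 dpi, Cxcr3 (1.27 ± 0.11).

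For the MK label, 20 MK identity genes were read, among them those for the markers used in the selection, Itga2b (CD41) and Gp5 (CD42d). All 20 were well above background on all 9 arrays. So were 24040 of the 29410 genes tested, and presence on every array therefore cannot tell MKs from other cells. The mean scaled log2 value of the MK genes was 1.96, 1.84 and 1.82 on the Ctrl arrays. It was 1.70, 1.69 and 1.63 at 1 dpi, slightly below the other groups, and 1.85, 1.82 and 1.81 at 3 dpi. The sum of their scaled intensities was 198, 176 and 175 on the Ctrl arrays. At 1 dpi it was 166, 167 and 163, and at 3 dpi 177, 172 and 171. Plek was the brightest probe on average over the 9 arrays. On every array this sum was below that of the 12 neutrophil genes given further down. A sum depends on the genes listed, and the share of MKs in the RNA was not tested. Zfpm1 (FOG-1) fell at both times (-1.35 ± 0.09 and -1.65 ± 0.09) and Trpc6 at 3 dpi (-1.46 ± 0.08), while 19 and 18 were not called. The 1 and 2 called lower stand beside 3.08% and 1.79% of all genes, and the 0 called higher beside 11.7% and 7.04%. Of these 20, 6 are also in the receptor list, 3 in the biogenesis list and 1, Treml1, in the list of other alpha-granule proteins. The selection marker Itga2b was at 0.67 ± 0.07 at 1 dpi (limma adjusted p = 0.000149) and -0.02 ± 0.07 at 3 dpi (0.795). Gp5 was at -0.56 ± 0.14 (0.011) and -0.28 ± 0.14 (0.176), and neither marker was called.

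Markers of other marrow cells were also present and moved with the groups, so they are given beside Sparc and Clu, and their counts stand against 11.7% and 7.04% of all genes called higher and 3.08% and 1.79% called lower at 1 and 3 dpi. Of 15 stromal genes, 11 were called higher at 1 dpi and 10 at 3 dpi and none lower at either, with medians of 1.50 and 3.50. The sum of their scaled intensities was 15.7, 15.3 and 16.1 on the Ctrl arrays, 75.1, 64.9 and 70.8 at 1 dpi and 144, 131 and 142 at 3 dpi, in the same order of groups as Sparc, with Cxcl12 the brightest probe. Tnc (3.00 ± 0.22 and 5.27 ± 0.22), Col6a1 (2.60 ± 0.12 and 3.94 ± 0.12) and Ebf3 (2.38 ± 0.08 and 4.10 ± 0.08) rose at both times like Cxcl12, Adipoq rose at 3 dpi (4.24 ± 0.11), and all 15 were well above background on every array. Of 15 endothelial genes, 6 and 10 were called higher, among them Cdh5 (1.71 ± 0.11 and 2.41 ± 0.11), Plvap (1.47 ± 0.10 and 2.08 ± 0.10), Ramp2 (1.74 ± 0.10 and 2.06 ± 0.10) and Stab2 at 3 dpi (2.07 ± 0.10), with a summed level of 15, 13.8 and 14.1 on the Ctrl arrays, 25.3, 22.3 and 22.9 at 1 dpi and 32.7, 27.8 and 28.3 at 3 dpi and Egfl7 the brightest probe. Of 14 macrophage genes, 6 rose at 1 dpi and 1, Cd163 (-2.09 ± 0.21), fell, and 11 rose at 3 dpi. Among these were Fcgr1 (2.46 ± 0.07 and 2.71 ± 0.07), Cd14 (1.64 ± 0.08 and 1.46 ± 0.08), Siglec1 (1.59 ± 0.09 and 2.84 ± 0.09) and C1qb (1.49 ± 0.09 and 2.52 ± 0.09), all called at both times, and the summed level was 99.8, 88.7 and 86.3 on the Ctrl arrays, 144, 138 and 144 at 1 dpi and 243, 237 and 234 at 3 dpi, with Csf1r the brightest probe on average over the 9 arrays. The part of these cells in the values of Sparc and Clu was not tested.

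For the other lists the summed level did not follow the order of Sparc, though the mean scaled log2 value of the T and NK cell list did. That mean ran from -1.79 to -1.57 on the Ctrl arrays, -1.09 to -0.91 at 1 dpi and -0.57 to -0.45 at 3 dpi. Of 12 neutrophil genes 1 was called at 1 dpi, S100a8 (1.12 ± 0.10), and 0 at 3 dpi, and their summed level was 1713, 1792 and 1776 on the Ctrl arrays, 2954, 2781 and 2751 at 1 dpi and 1926, 1727 and 1824 at 3 dpi, with Mpo the brightest probe. Of 11 erythroid genes 7 fell and 1 rose at 1 dpi, and 8 fell at 3 dpi, with Ahsp (-7.64 ± 0.18 and -2.62 ± 0.18) and Slc4a1 (-3.80 ± 0.12 and -2.20 ± 0.12) lowered at both times, as was Klf1 (-2.11 ± 0.12 and -1.69 ± 0.12), and Alas2 lowered at 3 dpi (-2.25 ± 0.12). Their summed level was 199, 171 and 180 on the Ctrl arrays, 399, 328 and 321 at 1 dpi and 65.8, 67.5 and 63.4 at 3 dpi, with Hba-a1 the brightest probe, and Rhag was not well above background on any 1 dpi array. Of 10 B cell genes 9 were called lower at each time, led by Vpreb3 (-5.44 ± 0.09 and -3.95 ± 0.09) and Ms4a1 (-4.15 ± 0.07 and -3.76 ± 0.07), with Igll1 (-4.72 ± 0.09 and -3.43 ± 0.09). The B cell sum was 42.2, 39.5 and 40.8 on the Ctrl arrays, 8.22, 7.93 and 8.18 at 1 dpi and 8.18, 7.93 and 7.93 at 3 dpi, with Cd79b the brightest probe, and Rag1 was not well above background on any irradiated array. Of 9 T and NK cell genes 3 and 5 were called higher, with Gzma (1.17 ± 0.11 and 2.23 ± 0.11), Ncr1 (1.002 ± 0.12 and 1.77 ± 0.12) and Prf1 (1.24 ± 0.31 and 1.14 ± 0.31) at both times and Klrb1c at 3 dpi (1.97 ± 0.15), and their sum was 42.7, 44.3 and 42.2 on the Ctrl arrays, 61.2, 57.5 and 57.9 at 1 dpi and 54.8, 49.7 and 48.4 at 3 dpi, with Nkg7 the brightest probe. Among 9 genes of mast cells and basophils, 4 passed as higher at 1 dpi and 3 at 3 dpi, and 1 passed as lower each time, with Prss34 (2.08 ± 0.13 and 1.17 ± 0.13) and Mcpt8 (1.62 ± 0.06 and 1.003 ± 0.06) and, at 1 dpi, Fcer1a (1.12 ± 0.13) higher and Kit lower at both times (-1.11 ± 0.11 and -1.32 ± 0.11), and their sum was 219, 190 and 182 on the Ctrl arrays, 537, 547 and 541 at 1 dpi and 360, 341 and 328 at 3 dpi, with Prss34 the brightest probe. The part of these cells in the values of the cargo genes was not tested.

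**Figure D5:**
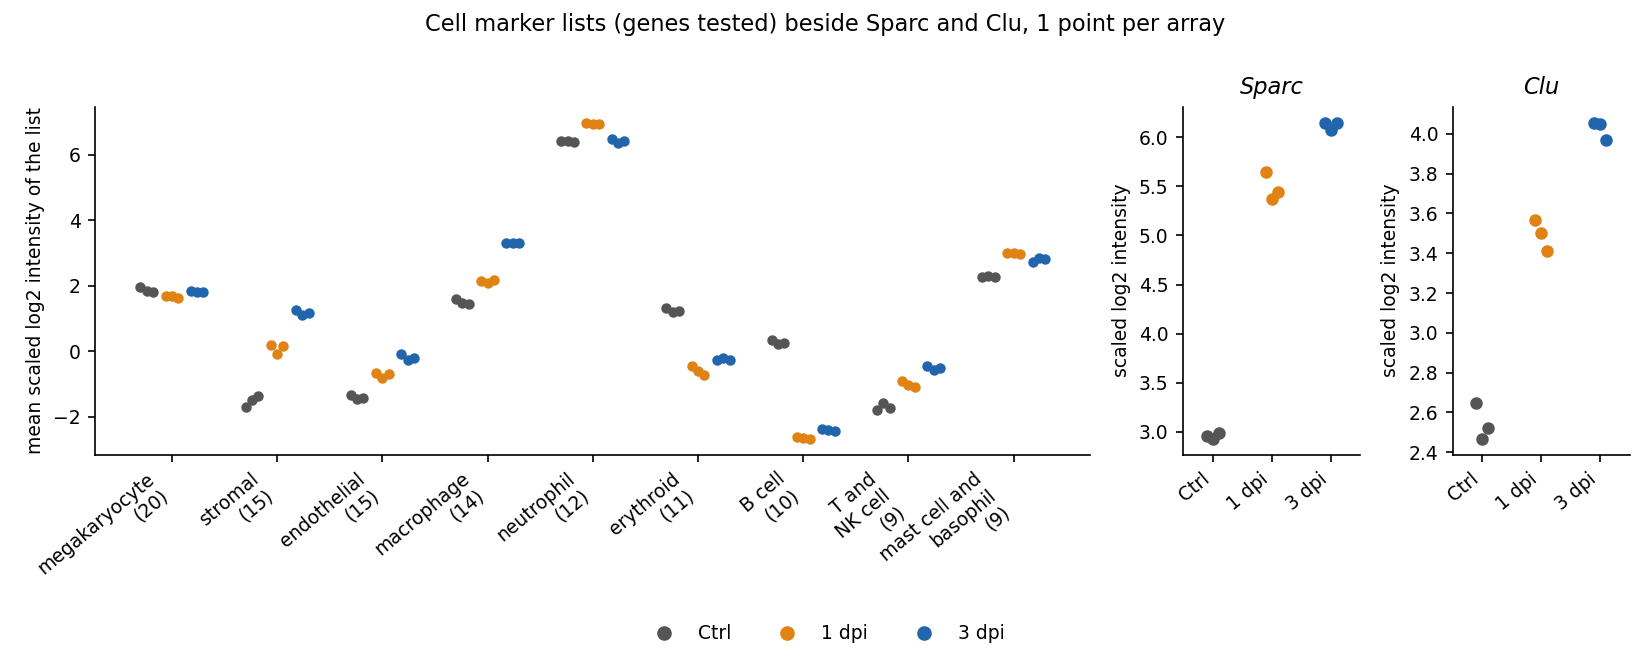
Mean scaled log2 intensity over the tested genes of 9 cell marker lists on each array (number of genes in brackets), beside the scaled log2 intensity of Sparc and Clu, with 1 point per array. The stromal, endothelial, macrophage and T and NK cell lists run from Ctrl to 3 dpi in the order of Sparc and Clu, and the MK list stays between 1.63 and 1.96.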

How the data were processed

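RNA of mMKs on 9 arrays (3 Ctrl, 3 at 1 dpi, 3 at 3 dpi) was read from the deposited Agilent Feature Extraction (10.7.1.1) files, in which the authors' scanner software gives background-corrected intensity per spot. The deposited gene table holds log2 values made by the authors, which matched a quantile normalization of the same intensities within 0.1 for 27050 of 27275 gene names, and was used as an alternative. The paper's methods describe another array maker than these files do, and the files were followed.

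Control spots and outlier flags were left out (20 probes), spots of 1 probe were averaged, and the log2 intensity was scaled to each array's 75th percentile. Probes that stood above background throughout at least 1 group were kept (44300), genes were named through RefSeq accessions (32984 probes) or else by the file, and the brightest probe stood for a gene. Probe positions are those of the files (mm9), and promoters are from RefSeq (GRCm38.p6). limma 3.58.1 in R 4.3.3 fitted 3 group means, and p-values were adjusted by Benjamini-Hochberg over all 29410 genes, or over all kept probes for the probe values. Errors are SE for fold changes. An exact permutation test of 3 against 3 cannot go below 0.1, so none was run. In simulated data of this design the fit found 73% and 74% of 1.5-unit log2 changes at 1 and 3 dpi.

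The members and lists were chosen with earlier results of these data known. Named were the 10 cargo genes, up to 3 called genes per list with the largest change at each time among those above background on every array compared (up to 6 for other alpha-granule proteins and MK identity), and the 3 genes with the nearest profile to each called cargo gene. Nbeal2 and the selection markers were named after their values were seen, as were the markers not above background and genes not tested. Alternatives covered scaling, background correction, filters, probe choice, the deposited table, the methods' t-test, slide, replicate number and each array left out.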

Additional observations from a re-analysis of the deposited data

Results flagged for a closer look

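For 5 of 10 cargo genes, beside 44.3% of all genes, the change from Ctrl differed between the 2 times by the test of 3 dpi against 1 dpi itself (limma adjusted p under 0.05 over all genes, with no minimum fold). The log2 difference was 0.75 for Ppbp (adjusted p = 0.00184), 0.83 for Mmrn1 (7.62e-05), 0.63 for Sparc (0.000614), 0.53 for Clu (0.000916) and -0.33 for Srgn (0.012). The first 4 stayed above 0 in all 5 scalings, and Srgn became 0.19 after quantile normalization.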

How the results depend on the processing

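Sparc was called at both times, and Clu at 3 dpi, in every alternative that gives 1 value per gene. With each probe as its own feature, 2 of the 3 Sparc probes were called at both times and A_55_P2713955 was not. The count of called cargo genes (1, 2 and 0 at 1 dpi, 3 dpi and between them) was 3 at 1 dpi with median scaling and 2 with the 75th percentile over bright probes and with the deposited values, where other probes stand for 6 of the 10 genes. It was 7, 6 and 5 by the methods' t-test at its unadjusted threshold, which drops the minimum fold change as well, 7, 5 and 5 after Benjamini-Hochberg, 7, 5 and 5 by limma with no minimum fold change alone, and 3, 4 and 2 of 19 with each probe as its own feature. The counts of all genes (4361, 2596 and 2542) became 15559, 10518 and 16718 and 12597, 7083 and 14160 by that t-test, 16275, 9391 and 13016 with no minimum fold change and 1667, 1147 and 1088 after normexp and quantile normalization. At 3 dpi and between the times they were 1733 and 1730 on 24040 genes well above background on all arrays, and 6321, 3754 and 3796 probes of 44300 were called with each probe as its own feature. As the mean of its probes, Sparc was 1.75 at 1 dpi and 2.15 at 3 dpi. The deposited values gave 3 cargo genes at 3 dpi, with Vwf at -1.36.

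Samples with the same replicate number did not vary together, with correlations of their deviations from -0.107 to 0.128, and not every sample correlated best with its own number. With the replicate number as a replicate block the counts were 1, 2 and 0 cargo genes and 4186, 2505 and 2455 of all genes. Leaving out 1 array at a time gave 1 to 2, 2 to 2 and 0 to 0 cargo genes (2 at 1 dpi without Ctrl replicate 3 or 1 dpi replicate 3, through Mmrn1) and 3505 to 5241, 2352 to 2783 and 2226 to 2747 of all genes. Over these, Sparc ran from 2.45 to 2.58 at 1 dpi and 3.14 to 3.18 at 3 dpi, Clu from 1.44 to 1.53 at 3 dpi and Mmrn1 from -1.02 to -0.94 at 1 dpi. Slide 1 holds only Ctrl replicate 1, so slide as a fixed term, the fit within slide 2 and leaving out that array are 1 fit, with 3505, 2371 and 2747 of all genes. As a random block, slide gave 3713, 2448 and 2742.

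The share of calls that were higher was 79.2% at 1 dpi, 56.3% after quantile normalization and 45% with median scaling, and between the times 48.2%, 62.9% and 68.2%.

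Signs of single genes turned in 37 values, while 660 kept their sign and call and 50 kept their sign and became called. Pf4 turned after quantile normalization (-0.34, -0.076 and 0.26 in the order above), median scaling (-0.25, -0.14 and 0.11), normexp (-0.32, -0.0756 and 0.24) and in the deposited values (-0.34, -0.0764 and 0.26). Srgn turned at 1 dpi (-0.11 quantile, -0.13 normexp), at 3 dpi (-0.0702 median) and between the times (0.19 quantile, 0.19 normexp). Vwf turned at 1 dpi (-0.28 median, -0.36 deposited, -0.10 mean of probes, -0.0132 to 0.13 with 1 array left out), at 3 dpi (0.0175 slide as random block, 0.0424 as fixed term, -0.0903 to 0.0424 with 1 array left out) and between the times (0.0905 median). Ppbp at 1 dpi was 0.0315 with slide as fixed term and -0.18 to 0.0315 with 1 array left out, and Selp at 1 dpi was -0.0306 with median scaling. Between the times Thbs1 and Selp were -0.0167 and -0.0159 over bright probes, -0.54 and -0.0523 in the deposited values, and -0.23 and -0.0535 as means of probes. The cause of these was not tested. For Mmrn1 the deposited table carries the probe that lay near background, which was not tested.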
